A study of Sus scrofa with 8 samples.

Results

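A porcine expression array carries, beside its probe sets for ordinary genes, 1858 probe sets named for microRNAs of 4 species, and 714 of them (38.4%) had a mean level of 4 or more in synovial mesenchymal stem cells. Those 714 are described here. They were selected on their mean log2 value over the 8 arrays, so that they stand at 4 or more is no result. The comparisons between breeds and tissues did not enter the choice. Some were nevertheless chosen through 1 side only: breed means lay on opposite sides of 4 for 31 of them and tissue means for 30. A probe set pools several short probes into 1 value, and a microRNA probe set carries the name of the hairpin and a species prefix: bta for cattle, hsa for human, mmu for mouse and ssc for pig. The suffix _s marks probes shared by several transcripts and _x probes that may also bind others, as is usual on arrays of this maker.

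The donors were 59-day-old piglets of 2 breeds, German Landrace (DL) and Angeln Saddleback (AS), with 3 animals per breed. Cells came from 2 kinds of synovium in the knee, the fibrous kind of the joint capsule (FS) and the adipose kind that covers the infrapatellar fat pad (FP). They were untreated and undifferentiated, were pooled and were harvested at passage 3. Each combination of breed and tissue was hybridised to 2 Snowball arrays, numbered 1 and 2, and an array is named by breed, tissue and number (DL-FP 1). The values are log2 RMA, a scale on which a difference of 1 is a doubling of signal. Nothing ties the 2 arrays of a group to separate animals or cultures, so p-values measure only how far arrays scatter, and that scatter may be technical. In bulk RNA, fewer cells of a type and less RNA per cell cannot be told apart.

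MicroRNAs are short RNAs that pair with messenger RNAs and lower their translation and stability. They are cut by DROSHA from long primary transcripts, often introns of other genes, and then by DICER1 from the hairpin. The let-7 family accumulates as cells leave an immature state and is blocked by LIN28 proteins, miR-221 and miR-222 are processed from 1 transcript and restrain the cell cycle inhibitor CDKN1B in human cells, and miR-21 is abundant in cultured fibroblasts. The arrays were hybridised with labelled cDNA copied from total RNA that was purified on columns, a preparation that does not select small RNA. A value here can come from the hairpin or its long precursor. Whether mature microRNA was kept and copied at all was not tested, and the forms cannot be told apart. The levels below are therefore not levels of mature microRNA.

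As for the whole data set, the median of all probe sets lay between 4.58 and 4.64 on the 8 arrays, and limma was run on 47722 probe sets after 123 controls were left out. The cells carried the genes of their label: 5 of 6 mesenchymal stem cell genes and 6 of 6 measured fibroblast genes stood at 4 or more, the latter from 11.04 to 13.14, while NT5E, another mesenchymal surface marker, stood at 3.01. The leukocyte marker PTPRC was at 2.08 and the macrophage marker CD163 at 2.999. Markers of other cells that reached 4 were 1 of 3 measured blood genes (CD34, 5.97), 4 of 5 endothelial, 3 of 4 adipocyte, 1 of 3 skeletal muscle and 1 of 3 epithelial genes, and none of these lay above the brightest background probe set on all arrays. Of all marker genes, the matrix gene LUM passed for breed (lower in AS by 1.01 on the log2 scale, adjusted p = 0.012) and CD34, a marker of blood and vessel progenitors, for tissue (lower in FP by 1.56, adjusted p = 0.0086). With the replicate block described below, the adipocyte gene FABP4 (1.14, adjusted p = 0.0246, 0.258 without) and the stromal gene VCAM1 (0.55, adjusted p = 0.0482, 0.396 without) were also higher in FP. For breed the block added CD44 (0.29), ENG (-0.27), the matrix gene DCN (-0.33), the endothelial PECAM1 (-0.53) and the adipocyte ADIPOQ (0.58), with adjusted p from 0.020 to 0.0745, and without it from 0.171 to 0.654. The part of these genes' cells in the results below was not tested.

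Whether a level of 4 lies above background depended on the base composition of the probe. Arrays of this type carry background probe sets in classes numbered from 3 to 25, taken here as the count of G or C bases in the probe. The 69 background probe sets had means from 1.199 to 7.52 over the arrays, and the higher classes were brighter: the mean was 1.27 in class 3, 2.06 in class 13, 4.38 in class 16 and 7.44 in class 22, the brightest. Background was therefore at 4 or more in 10 of 23 classes and in 30 of 69 probe sets. On each array the brightest background probe set lay between 7.27 and 7.70. Of the 714 microRNA probe sets, 70 (9.80%) exceeded it on all 8 arrays. Over the whole array 5524 of 47722 probe sets (11.6%) did. All of these are among the 28291 probe sets with a mean of 4 or more. The 714 were chosen at that level, so 11.6% is not the matching share. The matching count is 5524 of 28291, a larger share than the 9.80% of the 714. The base composition of the microRNA probes was not used here, so the matching background of any single one is not known, and they are called by the threshold that chose them.

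**Figure D1:**
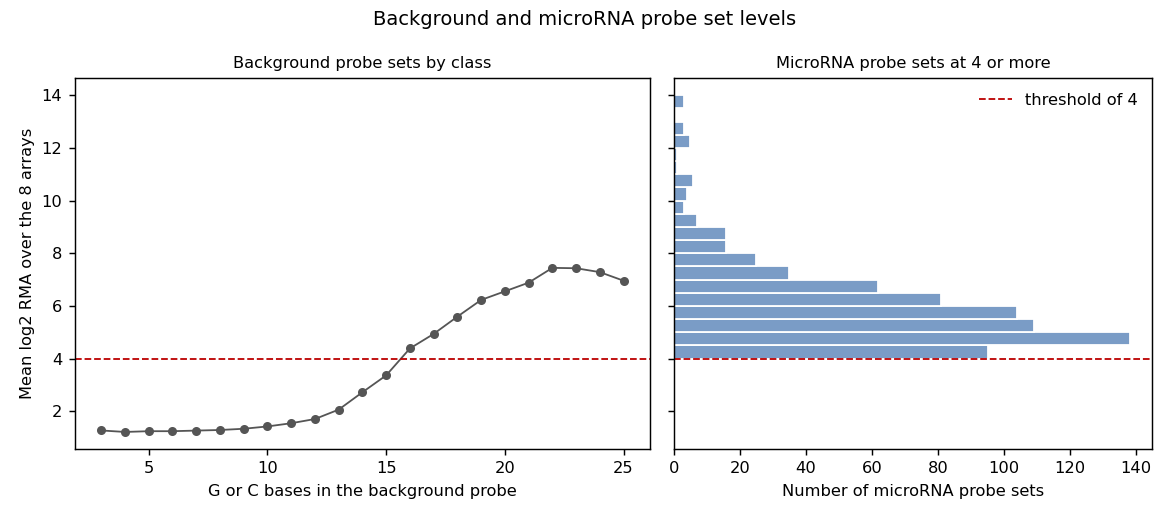
Left, mean log2 RMA of the background probe sets against the number of G or C bases that names their class; right, the number of microRNA probe sets at each mean log2 RMA in equal steps. The dashed line is the threshold of 4, which background classes 16 to 25 also exceeded.

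Most levels were modest. Of the 714, 233 had a mean from 4 to under 5, 213 from 5 to under 6, 60 from 7 to under 8, 42 from 8 to under 10 and 23 of 10 or more, with the rest from 6 to under 7. Their median was 5.56, while that of all microRNA probe sets was 3.16 and 59.3% of all probe sets on the array reached 4. At least 1 array was under 4 for 150 of them, and 67 had a group mean under 4. Cattle contributed 259 of its 623 (41.6%), human 269 of 731 (36.8%), mouse 161 of 446 (36.1%) and pig 25 of 58 (43.1%). The last 3 inside the threshold were hsa-mir-429_st at 4.02, mmu-mir-707_st at 4.003 and hsa-mir-219-1_s_st at 4.0002, and the first 3 outside were mmu-mir-297a-2_st at 3.998, bta-mir-1388_st at 3.998 and hsa-mir-422a_st at 3.997. By exact name, 153 of the 714 matched 1 of 315 microRNA genes in the pig RefSeq annotation (Sscrofa11.1), and 88 of these lay inside another annotated gene.

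The 12 brightest stood between 11.68 and 13.74, close to the top of the scale, with SDs over the 8 arrays of 0.07 to 0.32. In order they were mmu-mir-2133-1_s_st (13.74), bta-mir-2904-1_s_st (13.70), ssc-mir-1285_st (13.64), mmu-mir-2138_st (12.77), mmu-mir-2140_st (12.76), mmu-mir-2861_st (12.58), bta-mir-2887-1_s_st (12.48), mmu-mir-2134-1_x_st (12.42), bta-mir-328_st (12.39), mmu-mir-760_st (12.39), mmu-mir-218-2_st (12.29) and hsa-mir-638_st (11.68). Neighbours in this order lay no further apart than the larger of their SDs, except for the gaps after the third and after the eleventh. Several mouse entries numbered like these were later dropped from the microRNA catalogue as likely pieces of ribosomal RNA, and whether the probe sets read ribosomal RNA was not tested. None of the 12 differed between breeds by more than 0.18 or between tissues by more than 0.21. By exact name 1 of the 12, miR-328, matched a microRNA gene in the pig RefSeq annotation. The pig design ssc-mir-1285_st had no such match.

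Probe sets of the same microRNA name but another species often gave different levels. Of 233 names carried by more than 1 species, at any level, 90 spanned more than 2 log2 units and 50 less than 0.5, with a median span of 1.56. Among those with at least 1 probe set at 4 or more, a choice that itself favours wide spans, the median was 2.68. For miR-499, which lies in the myosin gene MYH7B and is known from heart and slow muscle, the human probe set stood at 10.81 and those of cattle and mouse at 2.69 and 1.92. The intronic miR-218-2 read 12.29 with the mouse probe set, 5.39 with the cattle and 3.71 with the human one. All 4 probe sets of miR-328 passed the threshold, at 12.39 (cattle), 7.86 (pig), 6.73 (human) and 5.82 (mouse). At the other end, let-7b lay within 0.43, miR-134 within 0.23 and miR-1287 within 0.02. The pig probe set is the one made for these cells where it exists, and a level read from another species' probe set depends on how well its probes match the pig, which was not tested.

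**Figure D2:**
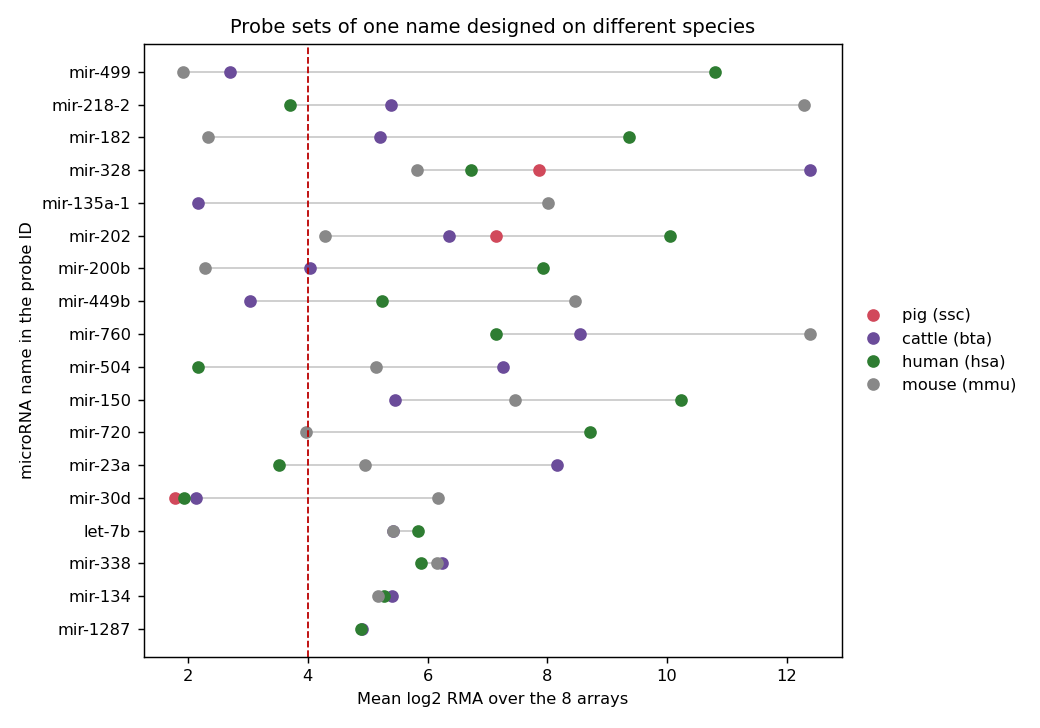
Mean log2 RMA over the 8 arrays for probe sets that share a microRNA name, coloured by the species of design, for the 14 names with the widest span and 4 names with narrow ones. Points of 1 name lie up to 8.89 apart in the upper rows and within 0.43 in the lowest 4, and the dashed line is the threshold of 4.

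Families were taken by the number in the probe name. In the let-7 and miR-98 family 9 of 18 probe sets reached 4, from 4.03 to 5.85, and none exceeded the brightest background. The miR-181 family had 9 of 19, led by miR-181d at 8.60 (mouse), 8.13 (pig), 6.86 (human) and 5.70 (cattle), with ssc-mir-181b-1_x_st lowest at 4.08. The family of miR-23, miR-24 and miR-27 had 8 of 14, from bta-mir-23a_s_st at 8.16 down to ssc-mir-24-1_x_st at 4.30, and the family of miR-34 and miR-449 had 6 of 17, from mmu-mir-449b_st at 8.46 to mmu-mir-449a_st at 4.23. Among growth-related families, miR-17, miR-92 and their relatives had 5 of 37 (bta-mir-92b_s_st 6.58 to ssc-mir-92a-2_st 4.81) and the relatives of miR-15 and miR-16 had 4 of 15, all named miR-195 (hsa-mir-195_st 6.82 to mmu-mir-195_st 4.45).

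Families best known from connective tissue had probe sets on both sides of the threshold. The group of miR-199 and miR-214, known from mesenchyme, had 3 of 7 probe sets, from bta-mir-214_s_st at 5.68 to mmu-mir-199a-1_st at 4.56. The miR-29 family, whose known targets are collagens, had 2 of 4, at 4.62 (bta-mir-29a_s_st) and 4.41 (bta-mir-29c_s_st), and bta-mir-21_s_st was the only probe set of its name, at 6.57. The pair miR-143 and miR-145 of smooth muscle and mesenchyme had 1 of 2, mmu-mir-143_s_st at 4.22, with mmu-mir-145_s_st at 2.62, and the cartilage microRNA miR-140 was at 2.13. The miR-30 family had 5 of 19 (ssc-mir-30a_st 7.09 to hsa-mir-30c-2_s_st 5.06), the family of miR-130 and miR-301 had 5 of 10 (mmu-mir-301b_st 7.44 to hsa-mir-130a_x_st 4.35), miR-26 had 4 of 7 (mmu-mir-26b_st 6.51 to mmu-mir-26a-1_x_st 4.32) and the relatives of miR-10 and miR-99 had 3 of 13 (bta-mir-99b_s_st 5.86 to mmu-mir-99a_s_st 4.38). The HOX clusters gave 2 of 9, bta-mir-615_s_st at 5.37 and hsa-mir-196a-1_x_st at 4.66, and the large imprinted DLK1-DIO3 cluster 21 of 94, from bta-mir-370_s_st at 8.03 to bta-mir-382_s_st at 4.09.

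MicroRNAs best known from other cells were mostly under the threshold, but so were microRNA probe sets in general, of which 38.4% reached it. The counts of these small lists are therefore not read as a trait of the cells. Endothelial miR-126 stood at 1.52 and liver miR-122 at 1.75, and 0 of 17 pluripotency probe sets (miR-302 and miR-367) reached 4, the highest being 2.49. The exceptions were 1 of 7 blood probe sets (mmu-mir-223_st, 6.05), 1 of 4 neuronal (hsa-mir-9-1_s_st, 4.49), 3 of 15 epithelial (hsa-mir-200b_st, 7.93, the highest) and 6 of 26 of striated muscle (hsa-mir-499_st, 10.81, the highest). The high readings of miR-499 and miR-200b were those of the human probes: for miR-499 the cattle and mouse probe sets stood at 2.69 and 1.92, and for miR-200b at 4.04 and 2.29.

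Few microRNA probe sets passed the adjusted test between the groups, though in the limma fit unadjusted p-values under 0.05 were more frequent than over the whole array. At an adjusted p of 0.1 or less, 1 of 714 passed the test between AS and DL, where 0.666% of all probe sets passed. The count was 0 between FP and FS (0.264% of all), within DL (0.044%), within AS (0.0545%), for the difference of FP minus FS between the breeds (0%), and between the breeds within FP (0.212%) or within FS (0.0943%). At an unadjusted p under 0.05 the 7 counts were 71, 58, 45, 63, 63, 59 and 60 in the same order. These are 9.94%, 8.12%, 6.30%, 8.82%, 8.82%, 8.26% and 8.40% of the 714. Beside them stand 8.72%, 5.10%, 4.20%, 5.03%, 3.58%, 5.95% and 6.88% of all probe sets. In this fit the share was thus higher among the 714 in each comparison. It depended on the model: a plain linear model, which takes the spread of each probe set alone, gave 26, 26, 20, 26, 19, 31 and 20. The share of all probe sets in that model is not given here. What the replicate number stands for is not given, but arrays with the same number deviated together (r of 0.143 to 0.219). With that number as a block the counts of adjusted calls were 10, 1, 2, 2, 0, 4 and 7. Beside these stand 3.04%, 0.987%, 0.434%, 0.495%, 0%, 0.826% and 1.07% of all probe sets. As a share, 1.40% of the 714 passed for breed with the block, below the background share, and 0.98% passed within FS.

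The sizes of difference were somewhat larger than elsewhere on the array without more calls. The median absolute difference between breeds was 0.15 over the 714 and 0.11 over all probe sets at 4 or more, and between tissues 0.14 and 0.09. Arrays also spread more: the median SD over the 8 arrays was 0.32, against 0.18 for all probe sets at 4 or more, and 69.9% had an SD above 0.25, against 27.3%. The spread was 0.19 for the 65 at 8 or more and 0.43 for the 233 under 5. The signed median breed difference was 0.02, with 389 higher and 325 lower in AS. By family, all 4 miR-26 probe sets were lower in AS (median -0.28, 0 called), and the DLK1-DIO3 cluster had 13 higher and 8 lower (median 0.05, 0 called). For bta-mir-21_s_st the DL arrays read 7.31, 6.43, 7.02 and 6.61 and the AS arrays 6.71, 5.79, 6.44 and 6.27, which overlapped (-0.54, adjusted p = 0.598, or 0.117 with the block).

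The probe set that passed in both fits was ssc-mir-181b-1_x_st, a pig design for a member of the miR-181 family, which is known for tuning the activation of lymphocytes. It read 4.77 and 5.36 in DL-FP, 4.58 and 4.30 in DL-FS, 3.84 and 4.73 in AS-FP, and 2.72 and 2.32 in AS-FS. The AS-FS arrays lay below the other 6, and the AS and DL arrays overlapped through AS-FP 2. Its means in AS and in FS lay under the threshold of 4. The probe set was thus chosen only through the sides where it was higher, DL and FP. The mean was 3.40 ± 1.097 in AS and 4.75 ± 0.45 in DL (log2 RMA, SD, n = 4 arrays), a difference of -1.35 (SE, the standard error, 0.23, adjusted p = 0.0757, or 0.0353 with the block). With the block it was also higher in FP (4.68 ± 0.63) than in FS (3.48 ± 1.12) (adjusted p = 0.0855, 0.160 without) and lower in AS within FS by 1.92 on the log2 scale (adjusted p = 0.0594, 0.168 without). It lost the breed call when any of 7 single arrays was left out. Probe sets of the same name from mouse, cattle and human were at 3.14, 1.52 and 1.25, under the threshold, with breed differences of 0.02, 0.38 and 0.23.

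The neighbours miR-221 and miR-222, within 10000 bases of each other in the pig annotation, were both lower in AS with the block. The cattle probe set bta-mir-221_s_st read 7.29 and 6.73 in DL-FP, 7.08 and 5.497 in DL-FS, 6.17 and 4.39 in AS-FP, and 6.36 and 5.08 in AS-FS. In every group the array numbered 2 was lower, by 1.30 on average, so the breeds overlapped in the pooled values but AS was lower than DL at the same number in each tissue. Its mean was 5.502 ± 0.93 in AS and 6.65 ± 0.80 in DL, a difference of -1.14 (SE 0.49, adjusted p = 0.558, or SE 0.18 and adjusted p = 0.0282 with the block). Within FP it was lower in AS by 1.72 on the log2 scale (adjusted p = 0.0425 with the block, 0.783 without). Without the block, single arrays moved these values: the breed difference was -0.75 without DL-FS 1 and -0.70 without AS-FP 2, and within FP it was -2.61 without AS-FP 1 and -0.83 without AS-FP 2.

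The probe set bta-mir-222_s_st read 6.24 and 6.30 in DL-FP, 6.37 and 5.74 in DL-FS, 5.87 and 5.01 in AS-FP, and 5.11 and 5.03 in AS-FS. AS-FP 1 was the highest of the AS arrays and lay above 1 of the DL arrays. The mean was 5.26 ± 0.41 in AS and 6.16 ± 0.29 in DL, a difference of -0.90 (SE 0.21, adjusted p = 0.182, or 0.0417 with the block). Between FP and FS the differences were 0.14 for miR-221 and 0.29 for miR-222, and neither passed (adjusted p = 0.9998 for both).

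**Figure D3:**
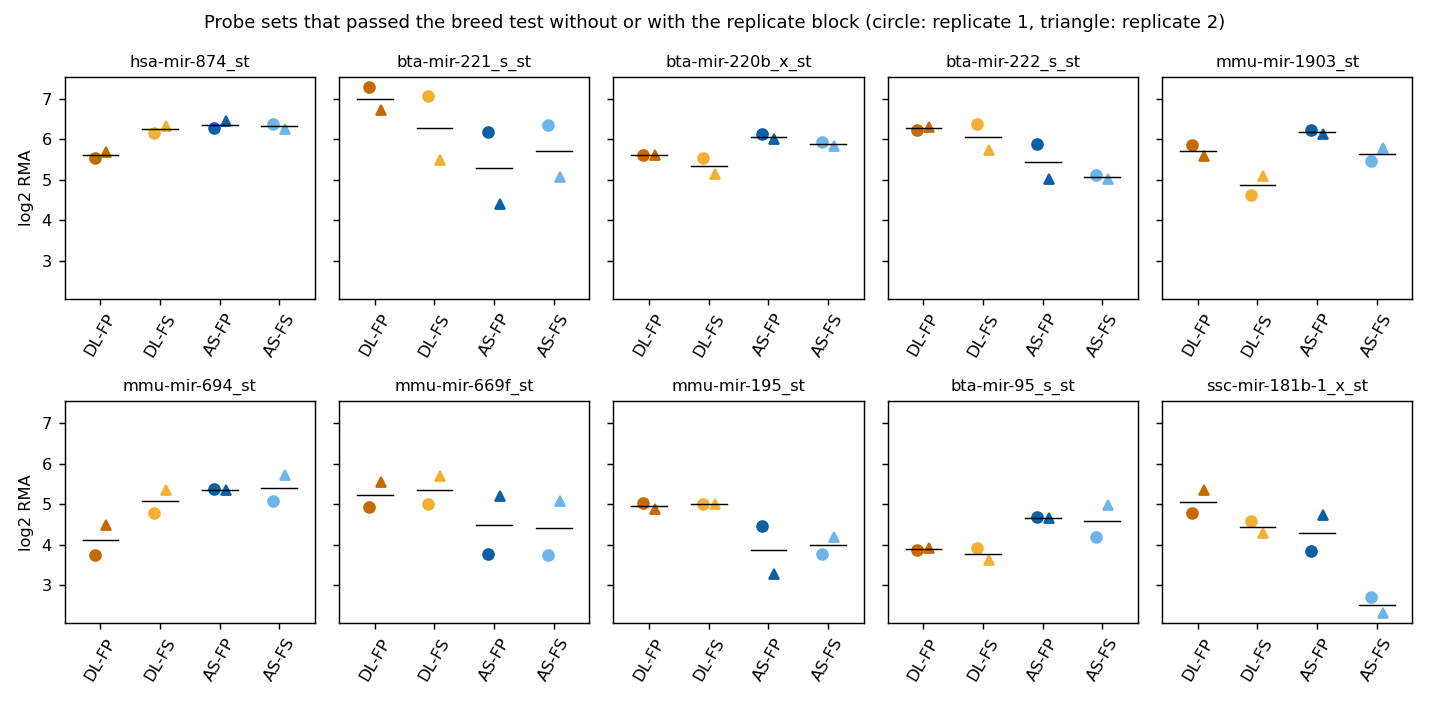
log2 RMA on each of the 8 arrays for the 10 probe sets that passed the breed test with the replicate block, by group, with circles for replicate 1, triangles for replicate 2 and lines at group means. Only ssc-mir-181b-1_x_st also passed without the block.

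The breed means of mmu-mir-195_st and bta-mir-95_s_st lay on opposite sides of 4, so each was chosen through its higher breed only. They belong to the other 7 that passed for breed with the block, which moved in both directions. Of these, mmu-mir-195_st, of the cell cycle restraining family of miR-15 and miR-16, read 5.03, 4.88, 5.001 and 5.01 on the DL arrays and 4.47, 3.27, 3.78 and 4.18 on the AS arrays. All 4 AS arrays lay under all 4 DL arrays, for a difference of -1.06 (SE 0.25, adjusted p = 0.085 with the block, 0.192 without), while the miR-195 probe sets of human, pig and cattle differed by 0.10, -0.25 and 0.28 and did not pass. The probe set bta-mir-95_s_st read 3.86, 3.92, 3.92 and 3.62 in DL and 4.67, 4.66, 4.20 and 4.98 in AS, again without overlap, a difference of 0.79 (SE 0.18, adjusted p = 0.0913 with the block, 0.185 without). For bta-mir-220b_x_st the DL arrays read 5.63, 5.604, 5.55 and 5.15 and the AS arrays 6.12, 6.0004, 5.95 and 5.83, a difference of 0.49 without overlap (adjusted p = 0.0649 with the block, 0.210 without).

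The remaining 4 overlapped between breeds. The probe set hsa-mir-874_st, for a microRNA inside the ubiquitin ligase adapter gene KLHL3, read 5.53, 5.68, 6.16 and 6.34 in DL and 6.28, 6.45, 6.39 and 6.26 in AS, so that DL-FP alone was low. Its difference was 0.42 for breed (adjusted p = 0.0822 with the block, 0.220 without). Within FP it was 0.76 (adjusted p = 0.0723 with the block, 0.185 without). The cattle probe set bta-mir-874_s_st differed by -0.14 for breed. The other 3 are named for microRNAs described in mouse. The probe set mmu-mir-694_st read 3.74, 4.50, 4.78 and 5.36 in DL and 5.36, 5.36, 5.08 and 5.72 in AS, low in DL-FP and higher in AS by 0.79 (adjusted p = 0.0466 with the block, 0.305 without). For mmu-mir-1903_st the values were 5.86, 5.58, 4.64 and 5.11 in DL and 6.24, 6.12, 5.46 and 5.79 in AS, so that DL-FS was lowest and AS was higher by 0.61 (adjusted p = 0.0927 with the block, 0.207 without). The probe set mmu-mir-669f_st read 4.93, 5.54, 5.01 and 5.70 in DL and 3.76, 5.20, 3.76 and 5.07 in AS, a difference of -0.85 (adjusted p = 0.0558 with the block, 0.596 without). In it the array numbered 2 was higher in all 4 groups, by 1.01 on average, and the difference was -0.49 without AS-FP 1 and -0.52 without AS-FS 1. Of the 18 probe sets that passed in any comparison, 7 moved the same way from array 1 to array 2 in all 4 groups. So did 16.9% of the 714 and 25.005% of all probe sets. All of the 18 but ssc-mir-181b-1_x_st passed only with the block. The block takes out such a shift and so favours probe sets that have it, and the 7 are no separate result.

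Of the 10 with a breed call, 3 had breed means on opposite sides of 4: ssc-mir-181b-1_x_st, mmu-mir-195_st and bta-mir-95_s_st. They are among the 714 only through the breed where they were higher. None of the 18 exceeded the brightest background on all 8 arrays. Without regard to a call, 10 of 714 (1.40%) had all 4 AS arrays above or below all 4 DL arrays, where 5.2% of all probe sets did, and 15 (2.10%) had this between FP and FS, where 2.79% did. For breed the 8 largest of these were mmu-mir-195_st, bta-mir-95_s_st and bta-mir-220b_x_st, described above, and mmu-mir-505_x_st (0.65), hsa-mir-1288_st (-0.45), mmu-mir-467h_st (0.35), hsa-mir-328_s_st (0.30) and bta-mir-378_s_st (-0.30), whose adjusted p was 0.329 to 0.583. For tissue they were bta-mir-375_s_st (0.83), hsa-mir-1539_st (0.83), hsa-mir-4284_st (0.56), mmu-mir-34b_st (0.56) and hsa-mir-1306_x_st (0.48), higher in FP, and mmu-mir-1962_st (-0.63), bta-mir-220d_x_st (-0.50) and hsa-mir-761_s_st (-0.47), lower in FP. The largest, bta-mir-375_s_st, known from pancreatic islets, read 5.11, 4.99, 5.16 and 6.19 in FP and 4.77, 4.88, 3.72 and 4.75 in FS. The adjusted p of the 8 was 0.212 to 0.942, and with the block mmu-mir-1962_st came nearest (adjusted p = 0.103).

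Within a breed or tissue, all calls came with the block and set 2 arrays against 2. Between FP and FS in DL, hsa-mir-3190_st read 4.56 and 4.29 in FP and 5.72 and 5.26 in FS (-1.07, adjusted p = 0.0669) and mmu-mir-1901_st read 4.40 and 4.70 in FP and 5.21 and 5.64 in FS (-0.88, adjusted p = 0.0926). In AS, hsa-mir-1238_st read 7.42 and 7.93 in FP and 6.77 and 7.12 in FS (0.73, adjusted p = 0.0633) and bta-mir-453_st read 5.17 and 5.496 in FP and 4.43 and 4.38 in FS (0.93, adjusted p = 0.0959). Without the block the adjusted p was 0.407 for hsa-mir-3190_st, 0.760 for mmu-mir-1901_st, 0.719 for hsa-mir-1238_st and 0.276 for bta-mir-453_st. The difference in hsa-mir-1238_st was 0.47 without AS-FP 2. Differences in the other breed were not shown to be unlike these, since the test of the difference between the breeds called 0 probe sets, with or without the block, and its smallest adjusted p among the 714 was 0.305 with the block.

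Several of these probe sets, on some of the same arrays, also passed between the breeds inside 1 tissue. Within FP, mmu-mir-1901_st was higher in AS by 1.01 (adjusted p = 0.0416) and mmu-mir-694_st by 1.24 (adjusted p = 0.0603), beside miR-221 and miR-874. Within FS, hsa-mir-3190_st was lower in AS by 1.05 on the log2 scale (adjusted p = 0.0442), as was hsa-mir-1238_st by 0.63 (adjusted p = 0.0787), whose difference was -0.41 without DL-FS 2. The cattle probe set bta-mir-2333_st read 6.28 and 6.57 in DL-FS and 5.43 and 5.69 in AS-FS (-0.87, adjusted p = 0.0873), with 5.63 to 5.87 in the FP groups. For bta-mir-105a_x_st the AS-FS arrays, at 6.62 and 6.60, were the lowest of all 8 and the DL-FS arrays read 7.20 and 7.23 (-0.61, adjusted p = 0.0787). The imprinted cluster's hsa-mir-134_x_st was higher in AS-FS, at 6.02 and 5.64, than in DL-FS, at 5.0007 and 4.71 (0.98, adjusted p = 0.0631), while bta-mir-134_st and mmu-mir-134_x_st differed by 0.02 and -0.06. All these adjusted p-values are with the block, and without it they were 0.185 or more within FP and 0.151 or more within FS.

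**Figure D4:**
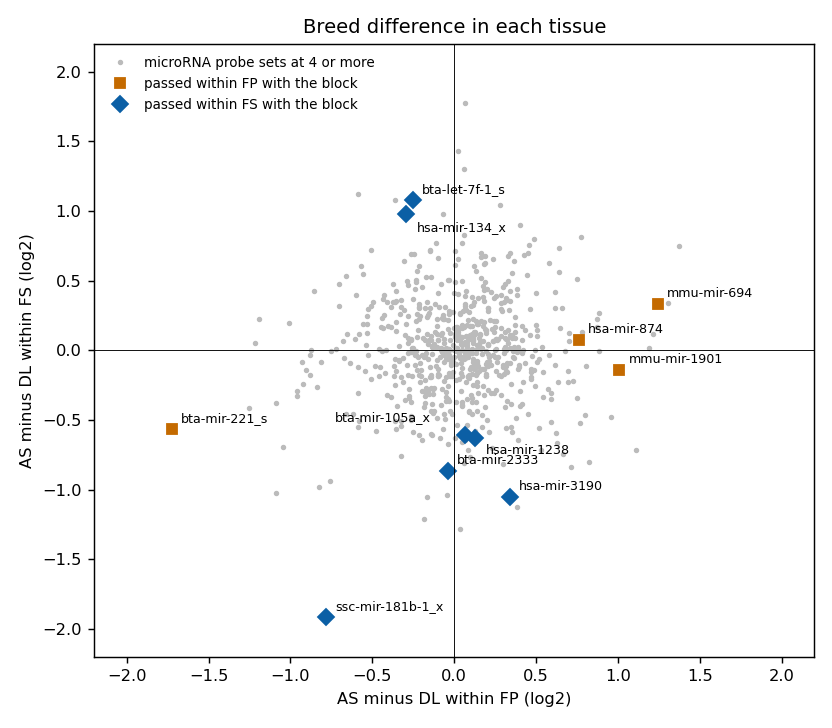
For each of the 714 microRNA probe sets, the log2 difference AS minus DL within FP against the same within FS; squares and diamonds mark those that passed with the replicate block. The 4 that passed within FP had differences from -1.72 to 1.24 there, and the 7 that passed within FS from -1.92 to 1.08.

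The let-7 family, looked at as a whole, gave no call between breeds or tissues. The 9 probe sets stood at 5.85 (hsa-let-7b_x_st), 5.66 (hsa-mir-98_st), 5.58 (bta-let-7i_s_st), 5.43 (bta-let-7d_s_st), 5.43 (mmu-let-7b_x_st), 5.42 (bta-let-7b_s_st), 4.95 (bta-let-7a-1_s_st), 4.58 (bta-let-7f-1_s_st) and 4.03 (ssc-let-7g_s_st), with SDs over arrays of 0.23 to 0.60. Neighbours in this order lay no further apart than the larger of their SDs. The 3 probe sets for let-7b, from human, mouse and cattle, lay within 0.43. Under the threshold were mmu-mir-98_x_st (3.88), bta-let-7a-2_s_st (3.28), bta-let-7a-3_s_st (3.27), mmu-let-7a-2_x_st (2.71), bta-let-7e_s_st (2.61), bta-let-7f-2_s_st (2.57), bta-mir-98_s_st (2.37), mmu-let-7c-2_st (2.14) and bta-let-7c_s_st (1.64).

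Between the breeds 8 of the 9 were higher in AS, by a median of 0.11 and at most 0.41. The smallest adjusted p was 0.352 (0.159 with the block). Within FS 8 were higher in AS and 1 lower (median 0.31), but within FP 4 were higher and 5 lower (median -0.09). Between tissues 5 were higher in FP and 4 lower, with a median of 0.07 and a smallest adjusted p of 0.969 (0.624 with the block). In DL 8 were higher in FP and 1 lower (median 0.20), and in AS 3 were higher and 6 lower (median -0.12). The most variable, ssc-let-7g_s_st, the pig design, read 3.90 and 4.95 in DL-FP, 4.12 and 2.93 in DL-FS, 4.31 and 3.52 in AS-FP, and 4.39 and 4.10 in AS-FS, so it crossed the threshold within every group but AS-FS. The brightest, hsa-let-7b_x_st, read 5.77 and 6.39 in DL-FP, 5.37 and 5.64 in DL-FS, 6.53 and 5.73 in AS-FP, and 5.93 and 5.41 in AS-FS, so that the DL-FS arrays lay under all FP arrays while AS-FS overlapped with each other group. In bta-let-7b_s_st both the lowest value, 4.31 (DL-FS 1), and one of the highest, 5.97 (DL-FS 2), came from the same group.

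A single let-7 probe set passed, in 1 comparison. In the fibrous synovium bta-let-7f-1_s_st read 4.13 and 4.12 in DL and 5.34 and 5.07 in AS, higher in AS by 1.08 (SE 0.18, adjusted p = 0.151, or 0.0442 with the block). In FP it read 4.72 and 4.51 in DL and 4.45 and 4.27 in AS. The AS-FS arrays were thus the highest of all 8, and the difference between the tissues' breed effects, -1.33, did not pass (adjusted p = 0.99999, or 0.332 with the block). The pig gene of the same name lies inside HUWE1, a ubiquitin ligase gene, next to MIR98. The probe set was designed on cattle, and whether it reads that pig gene was not tested. Of the 3 probe sets named for miR-98, hsa-mir-98_st was also highest in AS-FS, at 6.11 and 6.03 against 5.397 to 5.73 on the other 6 arrays, with a difference of 0.60 between the breeds in FS (adjusted p = 0.351, or 0.111 with the block). The other two, under the threshold, did not have this order: in AS-FS mmu-mir-98_x_st read 4.04 and 3.75, with up to 4.35 (DL-FS 2) elsewhere, and bta-mir-98_s_st read 2.54 and 2.74, with up to 3.34 (AS-FP 2) elsewhere. In bta-let-7a-1_s_st the AS-FS arrays were the highest as well, at 5.33 and 5.16. The pattern of both AS-FS arrays above the other 6 was found in 3 of 9 let-7 and miR-98 probe sets, 3.08% of the 714 and 3.73% of all probe sets. It is the pattern of bta-let-7f-1_s_st, itself 1 of the 3, so the family count is no separate result. Whether the 3 read shared sequence was not tested. HUWE1 itself stood at 9.91 and differed between breeds by 0.10 (adjusted p = 0.888).

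**Figure D5:**
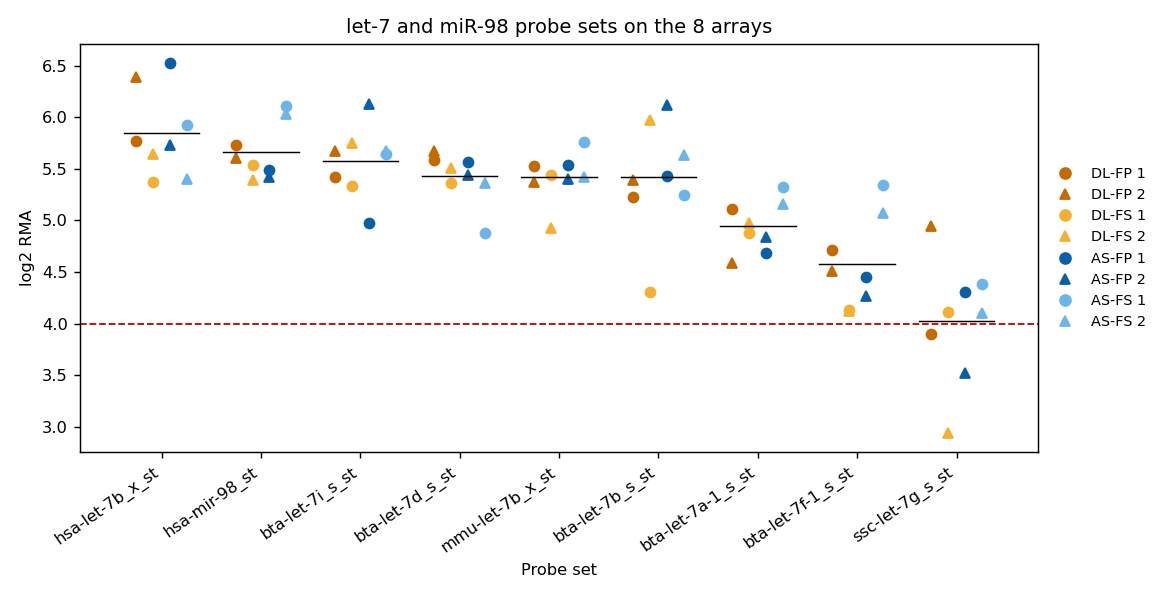
log2 RMA of the 9 let-7 and miR-98 probe sets on the 8 arrays, coloured by group, with circles for replicate 1 and triangles for replicate 2; the short line is the mean over the 8 arrays and the dashed line the threshold of 4. The 2 AS-FS arrays are the highest for hsa-mir-98_st, bta-let-7a-1_s_st and bta-let-7f-1_s_st.

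The genes that make and use microRNAs gave no call. Of 17 listed, 15 were measured and 14 stood at 4 or more, among them DICER1 (7.39), the microprocessor subunit DGCR8 (7.23) and the effector AGO2 (8.23), with DROSHA at 2.54. None passed in any of the 7 comparisons, with or without the block. The 4 measured regulators of let-7 did not pass either, and LIN28B, which blocks its maturation, stood at 3.69. Of 17 measured genes known as let-7 targets, such as HMGA2 (5.79), NRAS (9.99) and MYC (10.14), 0 passed without the block. With the block 1 passed, the RNA-binding protein gene IGF2BP2, lower in AS by 0.35 on the log2 scale (adjusted p = 0.0812, 0.459 without). The median difference over the let-7 targets was -0.10 for breed and -0.02 for tissue, against 0.01 and 0.00 over all probe sets.

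Among 8 measured genes known as targets of miR-221 and miR-222, the receptor KIT was lower in AS. It read 6.17, 6.42, 6.13 and 6.63 in DL and 4.46, 4.61, 5.21 and 5.17 in AS, without overlap, a difference of -1.48 (SE 0.14, adjusted p = 0.0068). The other KIT probe sets differed by -1.53 to -0.84. The cell cycle inhibitor CDKN1B differed by -0.56 (adjusted p = 0.496), and TIMP3, an inhibitor of matrix proteases, was lower in FP by 0.46 on the log2 scale with the block (adjusted p = 0.0105, 0.102 without). The list's median was -0.20 for breed.

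Genes that contain a microRNA could be set beside it in the pig annotation. A probe set of any species was paired with the gene that overlaps the pig microRNA of the same name. Of these 62 pairs (39 genes), 26 had the same sign for breed. None of these genes passed for breed or tissue without the block, and 2 passed for breed with it: SLIT2, which holds miR-218-1 (0.39, adjusted p = 0.0604), and BCAS3, which holds miR-378-2 (-0.39, adjusted p = 0.0234). For tissue 1 passed with the block, SLIT2 again, lower in FP by 0.58 on the log2 scale (adjusted p = 0.022, 0.609 without), while bta-mir-218-1_s_st differed by -0.01. SLIT3, which holds miR-218-2 in humans, was higher in AS by 1.33 (adjusted p = 0.0097) and lower in FP by 0.96 on the log2 scale (adjusted p = 0.0607), while mmu-mir-218-2_st differed by 0.17 and -0.08 and bta-mir-218-2_s_st by 0.19 and -0.42, without a call. KLHL3, around miR-874, differed by 0.05 for breed (adjusted p = 0.962). Of the 38 measured human host or neighbour genes, SLIT3 was the 1 that passed for breed and the 1 that passed for tissue without the block. With the block 4 were higher and 2 lower in AS: beside SLIT3 and SLIT2 these were MCM7 (0.58, adjusted p = 0.0123, 0.669 without), MEST (0.39, 0.097, 0.227 without), IGF2 (-0.27, 0.049, 0.329 without) and RNF130 (-0.27, 0.0936, 0.509 without). For tissue 3 were lower in FP with the block, SLIT3, SLIT2 and IGF2 (-0.41, adjusted p = 0.0147, 0.160 without).

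Of the 1144 microRNA probe sets under 4, 4 (0.35%) passed for breed without the block and 15 (1.31%) with it, beside 0.14% and 1.40% of the 714 and 0.666% and 3.04% of all probe sets. The 4 were bta-mir-1388_st (3.51 in AS, 4.49 in DL, a difference of -0.98, adjusted p = 0.0978), hsa-mir-3118-4_x_st (3.37 in DL, -1.17, adjusted p = 0.0199), bta-mir-224_s_st (3.20 and 2.22, 0.98, adjusted p = 0.0845) and hsa-mir-548i-2_st (1.14 and 1.96, -0.82, adjusted p = 0.0659). The first of these missed the threshold by less than 0.01.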

How the data were processed

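Per the submitters' processing notes the scans were made with GCOS 1.1.1. The authors summarised them by RMA in Expression Console, and the deposited values are log2; the table analysed here holds all probe sets, without the methods' filters on detection and spread. In limma 3.58.1 (R 4.3.3), 47722 probe sets were fitted with a mean for each of the 4 groups and variances moderated with a trend, and p-values were Benjamini-Hochberg adjusted within each of 7 comparisons at 0.1, the threshold of the methods. The fit was tested on simulated data. Arrays with the same replicate number deviated together in 6 of 6 pairs of groups (r of 0.143 to 0.219), so values with that number as a block are given where they change a call; what the number stands for is not given in the sources used here. Only 2 arrays a group limit the precision, and brightness over background stands in for depth.

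Members and lists were chosen with earlier results of these data known. Named are members called in either fit, the 12 brightest, all of let-7 and miR-98, family extremes, the 3 nearest the threshold on each side, the 8 largest breed or tissue differences without overlap, called list genes and host genes; other list genes stand as examples chosen after their values were seen. Gene symbols come from the platform annotation (26014 probe sets with 1 symbol), and a gene is represented by its brightest probe set. Pig names and neighbours come from RefSeq (Sscrofa11.1) by exact name, and no sequence or position is printed. Alternatives were no variance trend, the replicate block, filters on mean and SD, a plain linear model, quantile normalization, a threshold of 5 and leaving out each array. Other work used Python 3.11.15, numpy 2.4.6, pandas 2.3.3 and matplotlib 3.10.9.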

Additional observations from a re-analysis of the deposited data

Results flagged for a closer look

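For the probe sets with a breed or tissue call, each side of 4 arrays was searched for an array far from the rest (22 sides, of which chance would mark about 1 in 20). Among the DL arrays of bta-mir-220b_x_st, DL-FS 2 stood apart at 5.15, with a gap of 0.84 of the group's range. Among the AS arrays of bta-mir-222_s_st, AS-FP 1 stood apart at 5.87, with a gap of 0.88 of the range, and the breed difference without that array was -1.12.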

How the results depend on the processing

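The count of microRNA probe sets called between AS and DL was 1 and became 10 with the replicate block, 2 with only SDs above 0.25 tested, and 0 without the variance trend, with a plain linear model or with a threshold of 5 choosing the members. Between FP and FS the count of 0 became 1 with the replicate block and 1 with the SD filter. With the block the count rose from 0 to 2 for FP against FS within DL, to 2 within AS, to 4 for breed within FP and to 7 for breed within FS. The SD filter gave 1 for FP against FS within AS and 2 for breed within FS, where testing only means of 4 or more gave 1. Leaving out 1 array gave 0 to 2 breed calls (0 without DL-FP 1, DL-FP 2 or AS-FS 2, and 2 without DL-FS 1) and 0 to 1 tissue calls (1 without DL-FS 2 or AS-FS 2). For ssc-mir-181b-1_x_st the breed difference ran from -1.57 to -1.12 and its adjusted p from 0.0611 to 0.264 with 1 array left out. The causes were not tested. No difference changed direction among the 26 pairs of a called probe set and a comparison. Most alternatives could not change it: the block, the variance trend, the filters and the plain linear model leave the estimated difference as it is. Only quantile normalization and leaving out an array of the compared groups could. Apart from these counts, 2 arrays a group, shared sequence between probe sets and levels within the range of background limit what can be read.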
